A study of Mus musculus with 2 samples.

Results

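Twist1, Fosl1, Hmga2, Sox9, Etv4, Shox2 and Tfap2a are 7 of the 27999 genes counted by droplet single-cell RNA sequencing in dissociated mouse lungs. They were chosen by their values in these same data, because their summed counts were among those that differed most between the libraries or because they led the clusters of metastatic cells. Female FVB/NJ mice, 10 weeks old at injection, received the mouse mammary carcinoma line Met-1 through the tail vein. The lung taken at week 1 stands for a low metastatic burden and the lung taken at week 3 for a high one. Each burden is 1 library from 1 mouse, so no comparison below has a replicate check, and every interval covers counting error only. After filtering, 2473 low-burden and 3033 high-burden cells remained, with medians of 4073 and 13998 transcript counts (unique molecular identifiers, UMIs) per cell.

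All 7 proteins act in the nucleus on gene activity and are better known from embryos than from adult lung. Twist1 is a basic helix-loop-helix factor of the early mesoderm and neural crest that drives the transition from an epithelial to a mesenchymal state, and Sox9 is the master factor of cartilage and a factor of many epithelial progenitors. Shox2 is a homeobox factor of the limb and the cardiac pacemaker, and Tfap2a is an AP-2 factor of the neural crest and skin. Fosl1 is a FOS-family subunit of the AP-1 dimer and Etv4 is an ETS factor of the PEA3 group, and both are known as targets of growth factor signaling through ERK. Hmga2 is strictly a chromatin protein that bends DNA at AT-rich stretches, is shut off in most adult tissue and is a classical target of the let-7 microRNAs.

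In mouse assembly GRCm38, which matches the mm10 build of the deposited counts, Twist1 lies at chr12:33957671-33959829, Fosl1 at chr19:5447547-5455946, Hmga2 at chr10:120361275-120476469 and Sox9 at chr11:112782224-112787760. Etv4 lies at chr11:101769742-101785371, Shox2 at chr3:66971727-66981771 and Tfap2a at chr13:40715302-40738376. Other annotated genes overlap Fosl1, Hmga2, Shox2 and Tfap2a, and those in the count table lie on the opposite strand. Promoter windows from RefSeq (GRCm38.p6) were matched for 4 of the 7 factors. Those of Twist1, Hmga2 and Shox2 are shown because each ends at the annotated gene start. Each run gives the 250 bases before the start, 5′ to 3′ on the gene's strand (chr12:33957421-33957670, plus strand; chr10:120476470-120476719, minus strand; chr3:66981772-66982021, minus strand). Capitals mark matches to the SP1 letters GGGCGG and, near the 5′ end of the Hmga2 window, to the SOX letters ACAAAG, each read on either strand.
Twist1: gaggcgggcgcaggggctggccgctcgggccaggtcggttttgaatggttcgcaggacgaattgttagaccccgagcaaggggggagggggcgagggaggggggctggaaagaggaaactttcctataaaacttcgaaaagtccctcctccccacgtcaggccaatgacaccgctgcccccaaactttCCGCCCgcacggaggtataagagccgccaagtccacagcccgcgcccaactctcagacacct
Hmga2: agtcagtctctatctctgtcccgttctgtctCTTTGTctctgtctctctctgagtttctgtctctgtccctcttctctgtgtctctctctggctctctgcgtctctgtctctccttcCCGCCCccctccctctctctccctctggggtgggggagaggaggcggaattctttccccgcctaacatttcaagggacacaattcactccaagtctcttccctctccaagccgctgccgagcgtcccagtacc
Shox2: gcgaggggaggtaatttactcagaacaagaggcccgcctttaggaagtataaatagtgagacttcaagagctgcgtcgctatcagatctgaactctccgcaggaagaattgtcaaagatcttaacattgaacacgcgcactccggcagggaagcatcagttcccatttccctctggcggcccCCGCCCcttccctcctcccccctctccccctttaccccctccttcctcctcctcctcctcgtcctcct

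The SP1 letters were found in all 5 windows of these genes (Tfap2a has 2) and in 32.7% of the 32851 windows of all genes. The SOX letters were in 1 of the 5 windows and in 16.5% of all windows. The AP-1 letters TGANTCA, the AP-2 letters GCCNNNGGC, the ETS letters CCGGAA and the E-box letters CANNTG were in none of the 5, while 6.75%, 13.7%, 12.0% and 66.2% of all windows held them. A match is a description of the letters and not a binding site.

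Cells were sorted into classes with marker gates, mean scores over fixed marker genes with none of the 7 factors among them. The metastatic gate used 8 genes, among them Cdkn2a, Ccnd1, Lcn2 and Spp1. It held 1386 of 3033 high-burden cells (45.7%, median 21734.5 UMIs). In the low-burden library it held 0 of 2473 cells, and a count of 0 there limits the share to 0.121% at most. A further 1221 high-burden cells passed the gates of 1 other compartment, 288 passed gates of more than 1 compartment, and 138 passed none. The metastatic cells carried Vim, a mesenchymal filament, at 3292 UMIs per 1000000 UMIs (CPM), against 1363 in the other gated cells of that library. Epcam and Cdh1, epithelial adhesion genes, stood at 2.21 and 1.32 CPM, against 24.1 and 16.7. The epithelial keratin gene Krt8 was at 2.36 against 45.5, but Krt18 was at 67.1 against 52.7. Of the mesenchymal genes compared below, Fn1 (434 against 688) and Mmp2 (10.5 against 22.1) were lower in metastatic cells. The remaining ones had ratios from 1.07 (Sparc) to 9.14 (Cdh2). The tumor transgene PYMT was at 65.1 CPM in metastatic cells and at 61.7 in the other gated cells of the high-burden library, and had 0 UMIs at low burden, so it did not tell the classes apart.

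In the high-burden lung, all 7 factors were higher in the summed metastatic cells than in any other gated class of at least 20 cells, and 90.8% of their 31193 UMIs fell in these cells, which held 63.4% of all UMIs of the kept cells. Levels are given as CPM, the UMIs of the gene per 1000000 UMIs of the summed cells. Because genes differ in how well they are captured, a level is compared between cells and not between genes. Sox9 was at 306 CPM (299.7 to 311.7, 95% interval) in metastatic cells, at 29.5 in the other gated cells of the same lung, and had 33 UMIs in all low-burden cells. Twist1 was at 181 CPM (176 to 186) in metastatic cells, at 12.4 in the others, and had 16 UMIs at low burden. Hmga2 was at 164 (160.0 to 169) against 12.4, with 10 UMIs at low burden. The low-burden sums of these 3 genes were small, and no interval of a metastatic sum reached that of any other class with at least 20 cells.

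Fosl1 was at 111 CPM (107 to 114) in metastatic cells and 11.6 in the other gated cells, and had 2 UMIs at low burden. Etv4 was at 38.7 (36.6 to 40.9) against 6.18, Shox2 at 37.1 (35.0 to 39.2) against 1.86, and Tfap2a at 31.2 (29.3 to 33.2) against 3.58. Each of these last 3 had 1 UMI in the whole low-burden library. All 7 were thus high in 1 class of cells of 1 library, as their choice made likely.

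The ratio of metastatic to other gated high-burden cells ran from 6.25 (5.01 to 7.91) for Etv4 to 19.9 (13.4 to 30.9) for Shox2, with 14.6 (12.5 to 17.2) for Twist1, 13.3 (11.4 to 15.6) for Hmga2, 10.4 (9.37 to 11.5) for Sox9, 9.53 (8.11 to 11.3) for Fosl1 and 8.73 (6.53 to 11.9) for Tfap2a. All 7 were at least 4-fold higher, as were 3.58% of the 12511 genes with at least 50 UMIs (13.0% were at least 4-fold lower), a count from which nothing is read because this contrast entered the choice. When metastatic cells were instead those with a UMI of both PYMT and Ccnd1, 0 of 7 factors were 4-fold higher, with log2 ratios from 0.61 (Sox9) to 0.95 (Fosl1). In the study, metastatic cells were identified by a signature of these same genes. The rule used here took 1691 high-burden cells, among them 74.8% of the gated metastatic cells and 16.7% of the lymphocytes. With 2 Leiden clusters in place of the gate, all 7 stayed above 4-fold, with log2 ratios from 2.25 (Etv4) to 2.80 (Hmga2). Ranked by the ratio between the gated classes, Shox2 stood at place 16 and Etv4 at place 213 of 12511. The median ratio of the 7 was 10.4 and that of all genes 1.10. At the edge of the gate, the 85 cells just inside it (score 0.9 to 1.0) had Sox9 at 262 and Twist1 at 132 CPM. The 114 high-burden cells just outside it (score 0.8 to 0.9) had them at 114 and 57.1.

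**Figure D1:**
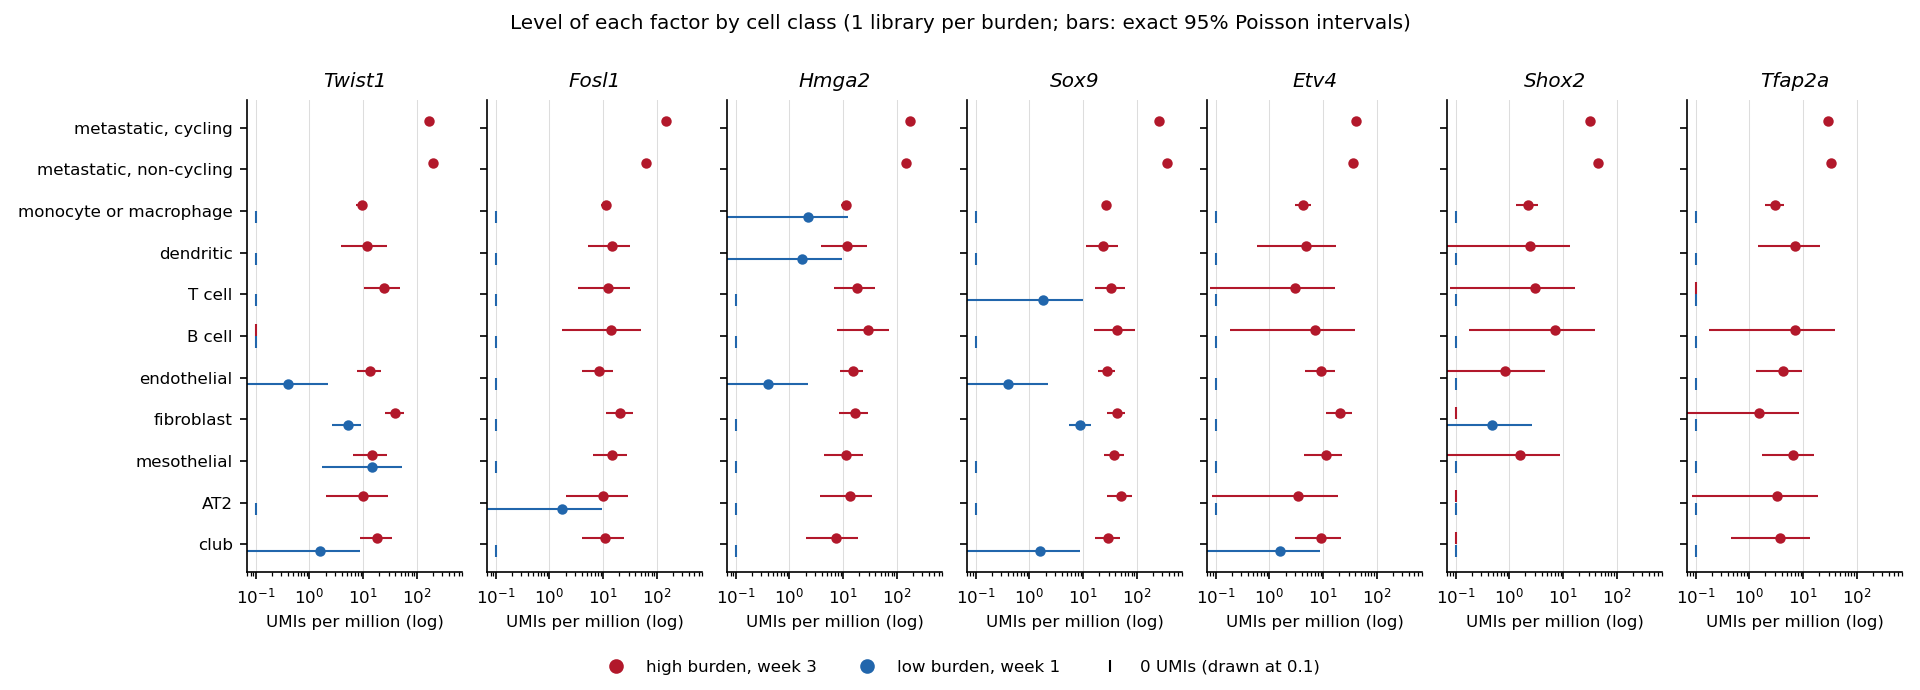
UMIs per 1000000 (log axis) of each factor in the summed cells of each class, red for the high-burden and blue for the low-burden library, with exact Poisson intervals and a tick near the left edge where no UMI was counted. The 2 metastatic points lie to the right of every other class for all 7 factors, and low-burden classes hold few or no UMIs.

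Outside the metastatic cells, the factors were found in most high-burden classes at a low level. In T, B and natural killer lymphocytes, 60 cells that should lack these genes, the levels were 6.79% (Tfap2a) to 12.9% (Hmga2) of those in metastatic cells. In 794 monocytes or macrophages they were 5.17% (Twist1) to 11.0% (Etv4). Metastatic markers stood at similar percentages of their metastatic level in lymphocytes, with 9.61% for Cdkn2a and 9.09% for Lcn2. These markers define the metastatic gate, and cells past it and another gate were left out. Their level in the other classes is therefore limited by the gate. Over the 8 gate markers the range was 4.38% (Col11a1, 1 UMI) to 11.9% (Gm12603, 3 UMIs) in lymphocytes. In macrophages it was 5.00% (Col11a1) to 25.1% (Ccnd1), and in endothelial cells Ccnd1 stood at 49.4%. In the low-burden lung, 198 lymphocytes had 1 UMI of Sox9 and none of the other 6 factors. The 112 low-burden monocytes or macrophages had 1 UMI of the factors, of Hmga2. The levels in lymphocytes and macrophages at high burden were taken as background for what follows, and the source of that background was not tested.

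In macrophages and endothelial cells, some factors had a share near that in metastatic cells and others did not. In lymphocytes, the background reference, Sox9 gave 36.2% (22.7 to 51.5) of 47 UMIs of the 7 factors and Twist1 19.1% (9.15 to 33.3). The lymphocyte interval of every factor held its metastatic share, but with so few UMIs these intervals are wide. Sox9 gave 35.2% (34.6 to 35.8) of the UMIs of all 7 in metastatic cells, 39.8% (35.8 to 43.8) in macrophages and 35.1% (25.5 to 45.6) in endothelial cells. Twist1 gave 20.8%, 13.6% (10.9 to 16.6) and 17.0% (10.1 to 26.2) in the same order. For Sox9 the endothelial interval held the metastatic value and the macrophage interval began just above it. The macrophage interval of Twist1 lay below the metastatic value, that of Fosl1 (16.4%, 13.6 to 19.7) above its 12.7%, and the endothelial interval of Etv4 (11.7%, 5.99 to 20.0) above its 4.45%.

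In fibroblasts of the high-burden lung, Etv4 was higher than in macrophages and lymphocytes, and Twist1 was higher than in macrophages. Etv4 reached 21.1 CPM (11.5 to 35.4, 14 UMIs in 12 of 64 cells), which was 54.5% of its metastatic level, against 4.27 (3.01 to 5.88) in macrophages. Twist1 reached 39.1 CPM (25.6 to 57.3, 26 UMIs in 20 cells), against 9.35 (7.42 to 11.6) in macrophages. The fibroblast to macrophage ratio was 4.94 (2.47 to 9.35) for Etv4 and 4.19 (2.58 to 6.58) for Twist1. Against the 60 lymphocytes, with 2 UMIs of Etv4 and 9 of Twist1, the ratio was 4.97 (1.14 to 45.1) for Etv4 and 2.05 (0.93 to 4.98) for Twist1, so the difference of Twist1 could not be told from counting error there. Over macrophages the ratio was 1.46 (0.71 to 2.74) for Hmga2 and 1.86 (0.98 to 3.28) for Fosl1, and both intervals held 1. For Sox9 it was 1.54 (1.00 to 2.29), at the edge of counting error. Shox2 had 0 UMIs in these fibroblasts. In the same fibroblasts Cdkn2a was at 7.49% and Lcn2 at 9.59% of the metastatic level, and the 8 gate markers ranged from 2.81% (Gm12603, 1 UMI) to 51.1% (Cp), with 32.6% for 3300005D01Rik from 8 UMIs. Etv4 also stood at 23.7% (11.8 to 42.6) of its metastatic level in endothelial and 28.9% (11.6 to 59.8) in mesothelial cells, from 11 and 7 UMIs. In 3 of the 64 fibroblasts at least 4 factors were found, and without these the ratios were 4.73 (2.24 to 9.27) for Etv4 and 3.42 (1.96 to 5.69) for Twist1.

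Fibroblasts were also the class with the most UMIs of the factors in the low-burden lung. Its 447 fibroblasts held 19 UMIs of Sox9 in 16 cells (8.95 CPM) and 11 of Twist1 in 9 cells (5.18 CPM, 2.59 to 9.27). They held 1 UMI of Shox2 and 0 of the other 4 factors. All other low-burden gated cells together held 22 of the 53 UMIs, among them 4 of Hmga2 in alveolar macrophages, 3 of Sox9 in ciliated cells and 2 of Twist1 in a mesothelial cell. From low to high burden, fibroblast Twist1 differed 7.55-fold (3.61 to 16.9) and Sox9 4.71-fold (2.54 to 8.92). Fibroblast Etv4, Fosl1 and Hmga2 had 0 UMIs at low burden, so their levels were set over a limit of 3 UMIs there. Etv4 and Fosl1 were each 14.9-fold and Hmga2 11.7-fold above that limit. These values do not include the counting error of the 14, 14 and 11 high-burden UMIs. Such rises were not confined to fibroblasts. In endothelial cells, with 1 UMI of each at low burden, the ratio was 33.5 (5.20 to 1404) for Twist1, 37.7 (5.95 to 1570) for Hmga2 and 69.1 (11.6 to 2810) for Sox9. The high-burden library carries the background given above, and its part in these differences was not tested. The libraries are also from different mice and weeks, which cannot be told apart from burden.

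Within the metastatic cells, a limit of 0.35 on a cycling score, the mean over 25 cell division genes, gave 647 cycling and 739 non-cycling cells, with 141 cells between 0.25 and 0.45. Cycling cells had more UMIs per cell, with medians of 27898 and 17199. All 7 factors were found in both kinds of cell. Their ratios over the other gated cells ran from 5.38 (Fosl1) to 23.9 (Shox2), both in non-cycling cells. Nothing is read from these ratios because that contrast entered the choice. The contrast of cycling with non-cycling cells was not used to choose the factors, but the same cells were.

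Fosl1 was the factor that differed most between the cell cycle states. It was at 146 CPM (141 to 152) in cycling and at 62.5 (58.4 to 66.8) in non-cycling cells, a ratio of 2.34 (2.17 to 2.53). It was found in 88.9% of cycling and 52.2% of non-cycling cells. With every cell thinned to 10000 UMIs, which left out 12 cycling and 59 non-cycling cells, it was found in 70.4% (66.7 to 73.9) and 38.8% (35.1 to 42.6), and the ratio of levels was 2.37 (2.11 to 2.68). The difference therefore held at equal depth.

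Sox9 and Shox2 lay the other way. Sox9 was at 255 CPM (248 to 263) in cycling and 374 (364 to 385) in non-cycling cells, a ratio of 0.68 (0.66 to 0.71). Shox2 was at 31.7 (29.2 to 34.3) and 44.4 (41.0 to 48.1), a ratio of 0.71 (0.64 to 0.80). Twist1 was at 169 and 198, a ratio of 0.85 (0.81 to 0.90). These 3 factors were lower in cycling cells, by less than 1.5-fold each, but under the rule of PYMT and Ccnd1 the log2 ratio of Twist1 was 0.082. Hmga2 was at 175 and 151, a ratio of 1.16 (1.10 to 1.23). Etv4 was at 40.6 and 36.0, a ratio of 1.13 (1.01 to 1.26), and Tfap2a at 29.8 and 33.2, a ratio of 0.90 (0.79 to 1.02). The ratio of Etv4 was 1.70 (1.23 to 2.35) in cells thinned to 3000 UMIs and 1.09 (0.91 to 1.3) in cells thinned to 10000, so its difference depends on the UMIs drawn. For Tfap2a no difference could be told from counting error.

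Of all 11322 genes with at least 50 UMIs in metastatic cells, 11.8% were at least 1.5-fold higher and 11.9% at least 1.5-fold lower in cycling cells. Of the factors, 1 of 7 was past that limit upward, Fosl1, and 0 of 7 downward, so their counts lie near those of all genes. Fosl1 stood at place 402 of 11322 by this ratio. The median ratio of the 7 was 0.90 and that of all genes 0.99.

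**Figure D2:**
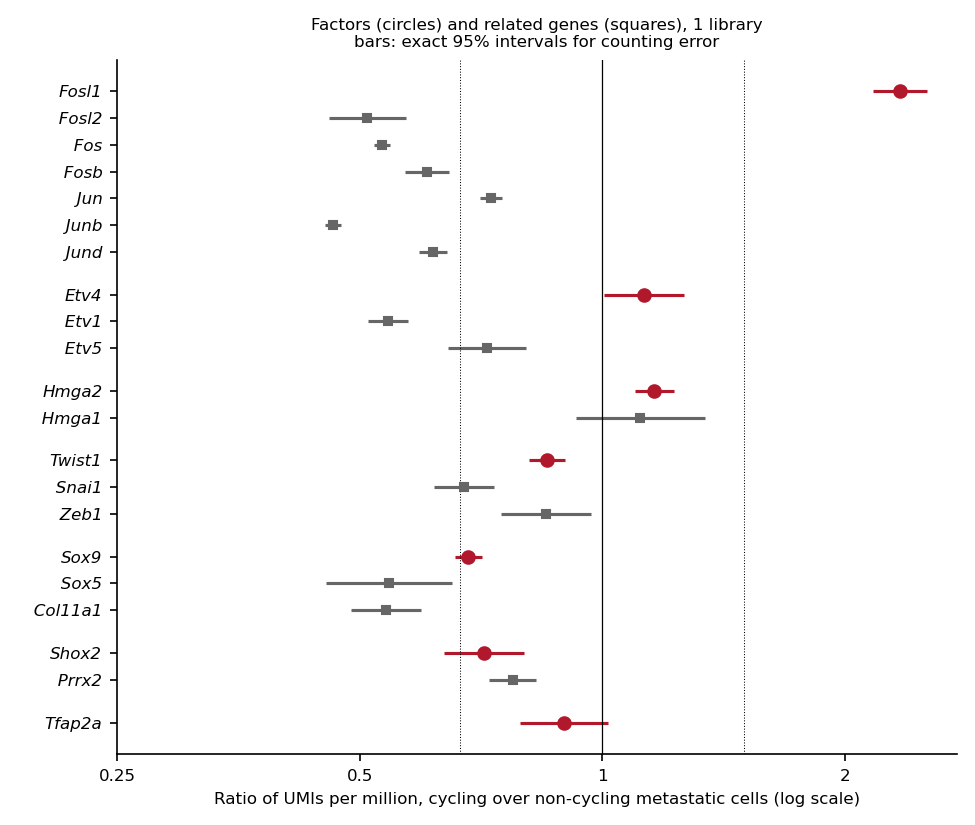
Ratio of CPM in cycling over non-cycling metastatic cells (log axis) for the 7 factors (circles) and related genes (squares), with exact 95% intervals and dotted lines at 1.5-fold. Fosl1 stands at 2.34 while the FOS and JUN genes under it stand between 0.46 and 0.73.

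The same order appeared when the metastatic cells were split by the cycling score into 5 groups of 277 or 278 cells. From the lowest to the highest score, Fosl1 was at 52.0, 56.9, 105, 152 and 140.5 CPM. Sox9 was lower in each group than in the one before, with 420, 382, 309, 275 and 227 CPM. Hmga2 was at 127 CPM in the lowest group and at 167 in the highest, with its top value of 183 in the group before that. Twist1 lay between 157 and 201 CPM and was lowest in the group with the highest score. Shox2 lay between 29.7 and 48.3 CPM, Etv4 between 32.3 and 43.3, and Tfap2a between 26.3 and 34.8. Median depth rose along with the score, from 15237 to 31241 UMIs per cell.

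**Figure D3:**
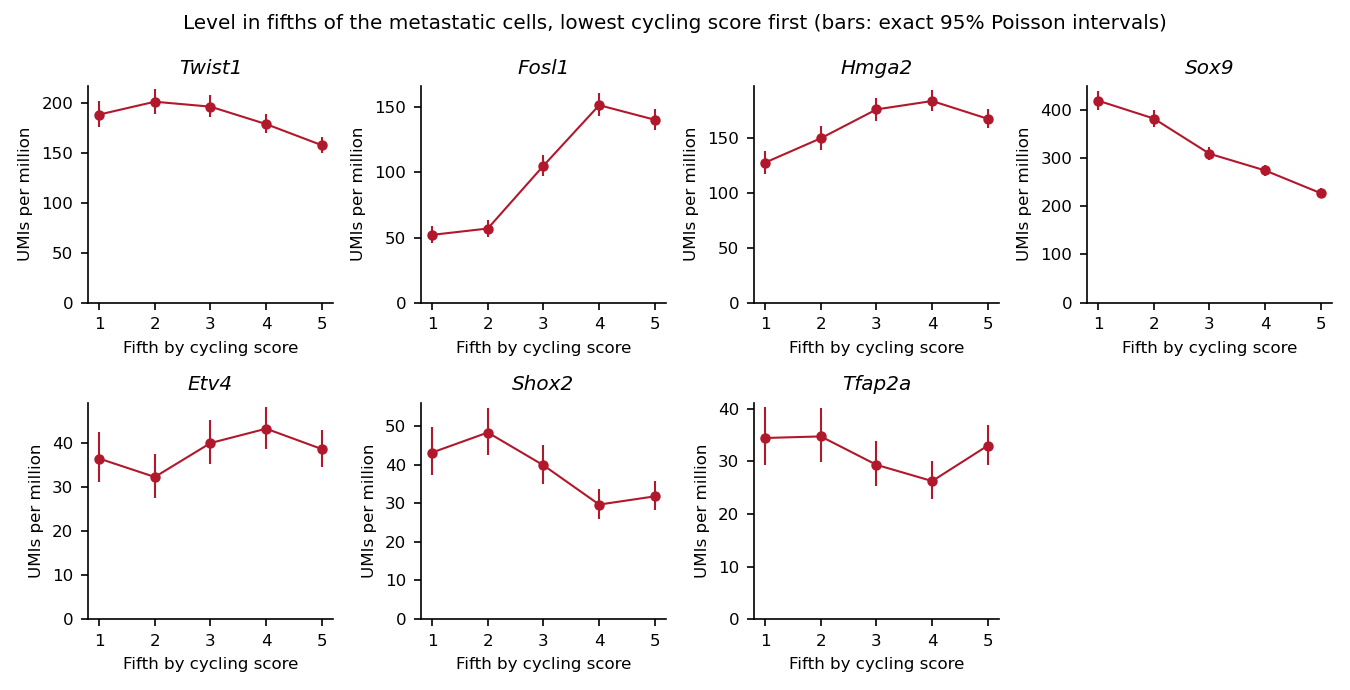
CPM of each factor in 5 nearly equal groups of metastatic cells ordered by cycling score (x axis, lowest first), with exact Poisson intervals and axes from 0. Fosl1 is at 52.0 in the lowest and 140.5 in the highest group, and Sox9 at 420 and 227.

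Cells were next described by how many of the 7 factors they contained. At full depth, 1383 of 1386 metastatic cells had at least 1 factor, 83.4% (81.3 to 85.3) had at least 4, and 168 cells (12.1%) had all 7. Since a shallow cell shows fewer genes, cells were thinned to 3000 UMIs, which left out no high-burden cell and 530 of 2057 low-burden gated cells. At that depth, 88.9% (87.1 to 90.5) of metastatic cells had at least 1 factor and 7.14% (5.84 to 8.63) at least 4. Of the 1221 other gated cells of the same lung, 19.3% (17.2 to 21.7) had at least 1 and 0 had 4, and that count limits the share to 0.246% at most. Lymphocytes, the background reference, had at least 1 factor in 23.3% (13.4 to 36.0) of 60 cells, with a median of 6851 UMIs before thinning. In the low-burden lung, 1.38% (0.85 to 2.09) of 1527 cells had at least 1. The mean at this depth was 1.82 factors per metastatic cell, 0.21 per other gated high-burden cell and 0.014 per low-burden gated cell.

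**Figure D4:**
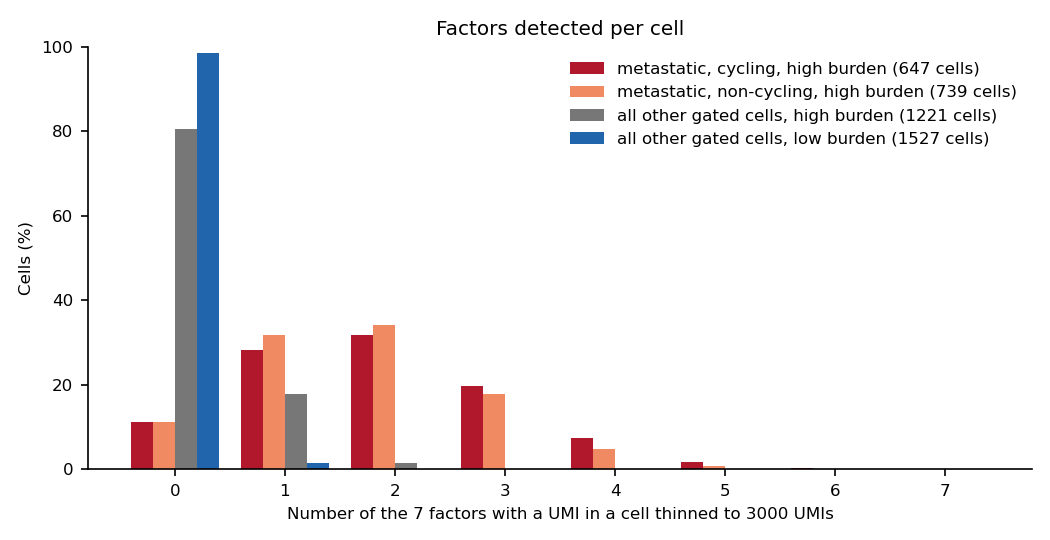
Share of cells (y axis, %) by the number of the 7 factors with a UMI after thinning to 3000 UMIs (x axis) in cycling and non-cycling metastatic cells and in the other gated cells of each library. Of the other gated cells, 80.7% at high burden and 98.6% at low burden have none, against 11.1% of metastatic cells.

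The number of factors per cell in the cycling and non-cycling cells was compared at 3 equal depths. At 2000 UMIs, 2.47% (1.42 to 3.98) of cycling and 2.71% (1.66 to 4.15) of non-cycling cells had at least 4 factors, and the intervals overlapped widely. At 3000 UMIs the means were 1.89 and 1.75 factors per cell, and 9.12% (7.01 to 11.6) of cycling and 5.41% (3.89 to 7.30) of non-cycling cells had at least 4. At 10000 UMIs the share with at least 4 was 64.1% (60.2 to 67.8) and 52.9% (49.1 to 56.7). The intervals did not overlap at 10000 UMIs and overlapped slightly at 3000. At full depth the shares were 94.4% and 73.7%, a wider gap between cells that also differed in depth. In the whole low-burden library, 2 cells held 2 factors each, a fibroblast with Twist1 and Sox9 and a club cell with Sox9 and Etv4, and none held 3.

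For each pair of factors, the share of cells with both was set beside the product of their separate shares. At 10000 UMIs, Twist1 and Sox9 were both found in 67.2% (64.6 to 69.8) of 1315 metastatic cells, and the product of their shares was 67.1%. With single shares of 75.6% and 88.8%, the share with both could lie only in a narrow range around that product. Little is therefore read from this pair, and the same limit holds for other pairs with Sox9 at this depth. Fosl1 and Hmga2 were both found in 40.3% (37.6 to 43.0), above a product of 36.5%. Split by state, that pair was found in 54.3% (50.4 to 58.3) of cycling cells against a product of 52.2%, and in 27.2% (23.9 to 30.7) of non-cycling cells against 23.8%. Etv4 and Tfap2a were both found in 7.53% (6.16 to 9.09), against a product of 8.36%, which was the lowest of the 21 pairs relative to its product. The ratio of observed share to product ran from 0.90 to 1.10 with a median of 1.02, above 1 for 16 of the 21 pairs and below 1 for 5. For 20 of the 21 pairs the product lay inside the interval of the observed share. That interval does not hold the single shares fixed and is wide for this purpose. A product inside it therefore does not show that 2 factors were found independently of each other. For none of the 21 pairs at this depth did the product lie above that interval.

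**Figure D5:**
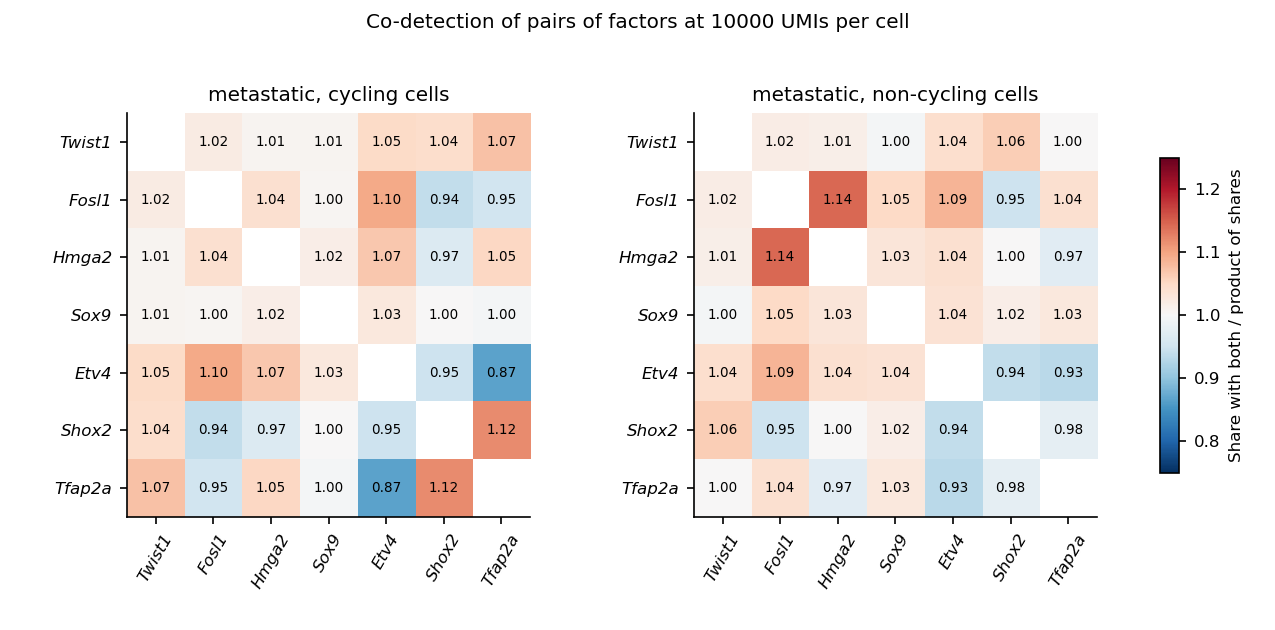
Share of cells with both factors divided by the product of their single shares (color and number) for the 21 pairs, in 635 cycling and 680 non-cycling metastatic cells at 10000 UMIs. The values lie between 0.87 and 1.14, with Fosl1 and Hmga2 in non-cycling cells the highest.

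The near relatives of the factors did not all share their pattern. Of 17 relatives, 8 had at least 50 UMIs, 2 were at least 4-fold higher in metastatic cells and 1 at least 4-fold lower, against a background of 3.58% higher. Etv1, of the same ETS group as Etv4, was at 150 CPM against 15.0 in other gated cells, and the paired-type homeobox gene Prrx2 at 107 against 12.7. Its paralog Prrx1 was at 0.49 against 8.72. Fos was at 966 against 1066, Fosb at 123 against 163 and Fosl2 at 41.4 against 57.8, none of them 4-fold higher as Fosl1 was. This contrast entered the choice of the factors but not that of their relatives. Nothing is therefore read from a factor being higher than its relatives here. Etv5 had a ratio of 1.52 and Hmga1 of 1.27. Twist2 had 5 UMIs and Tfap2b, Tfap2c, Tfap2d and Tfap2e had 0 in metastatic cells.

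The FOS and ETS relatives differed from Fosl1 and Etv4 by cell cycle state, while the relatives of Hmga2 and Shox2 lay near those factors. Fosl1 was 2.34-fold higher in cycling cells, whereas Fos had a ratio of 0.53 (0.52 to 0.54), Fosb of 0.61 (0.57 to 0.64) and Fosl2 of 0.51 (0.46 to 0.57). The JUN genes, partners of FOS proteins in AP-1, were also lower in cycling cells, with 0.46 (0.45 to 0.47) for Junb, 0.62 for Jund and 0.73 for Jun. Etv4 had a ratio of 1.13, but Etv1 of 0.54 (0.51 to 0.57) and Etv5 of 0.72 (0.64 to 0.80). Of the 7 relatives with enough UMIs, 4 were at least 1.5-fold lower in cycling cells and 0 higher, against 11.9% and 11.8% of all genes. Hmga1, at 1.11 (0.93 to 1.34), lay near Hmga2, and Prrx2, at 0.77 (0.72 to 0.83), lay near Shox2 at 0.71.

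Other genes of the pathways around the factors gave mixed counts, to be read against the 3.58% of all genes that were at least 4-fold higher, the 13.0% that were at least 4-fold lower and the median ratio of 1.10 over all genes. The median ratio was 1.54 for the transition regulators, 0.68 for the AP-1 partners, 1.52 for the ERK genes, 1.63 for the FOSL1 and AP-1 targets, 1.01 for the HMGA2 axis, 0.11 for the mammary genes and 1.31 for the mesenchymal genes. Of 9 measured regulators of the epithelial to mesenchymal transition, 1 was at least 4-fold higher in metastatic cells, the zinc finger repressor Snai1 at 5.67-fold, followed by Id3 at 2.25-fold, while Zeb2 and Snai2 had the lowest ratios of 0.26 and 0.33. Of 8 AP-1 partners, 0 were 4-fold higher, with Jun at 1.26 and Junb at 0.95, and 2 were 4-fold lower, Batf at 0.05 and Atf3 at 0.16. Of 13 feedback and target genes of ERK signaling, 2 were 4-fold higher, the inhibitor Spry2 at 5.72-fold and Phlda1 at 4.10-fold, and none lower, with Dusp5 and Spred2 lowest at 0.78 and 0.90. In cycling cells, 6 of these 13 were at least 1.5-fold lower and 0 higher, against 11.9% and 11.8% of all genes, and their median ratio was 0.69 against 0.99. Such counts were not particular to the ERK genes. Of the transition regulators 4 of 8 were lower and 0 higher, and of the AP-1 partners 3 of 7 and 1. Of the mesenchymal genes 3 of 8 were lower, of the HMGA2 axis 2 of 4 and of the mammary genes 0 of 5, with 0 higher in each.

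Of 11 measured genes known to be bound or driven by FOSL1 or AP-1, 3 were at least 4-fold higher in metastatic cells. They were the matrix proteases Mmp10 at 8.40-fold (4.72 to 16.5) and Mmp3 at 7.34-fold and the growth factor Hbegf at 4.31-fold. Mmp10 reached 50 UMIs through the metastatic cells (245 UMIs, against 12 in the other gated cells), so nothing is read from its ratio. Mmp13 at 0.06 and Hmox1 at 0.24 were 4-fold lower. By cell cycle state, 2 of 8 genes of that list were at least 1.5-fold higher in cycling cells and 1 lower, against 11.8% and 11.9% of all genes. The higher ones were Mmp3 at 1.61 (1.41 to 1.83) and Plaur, the urokinase receptor, at 1.52 (1.38 to 1.69), and the lower one was Hmox1 at 0.49. With 8 genes, these counts are not read as a difference from all genes. Of 13 cartilage-type targets of SOX9, only 3 had 50 UMIs, and these reached that number through the metastatic cells, so nothing is read from their ratios of 18.1 (Col11a1, also a gate marker), 13.3 (Col9a3) and 4.52 (Sox5). These 3 were at least 1.5-fold lower in cycling cells, with ratios of 0.54, 0.35 and 0.54, against 11.9% of all genes. Among the other lists, 4 of 8 transition regulators, 6 of 13 ERK genes and 0 of 5 mammary genes were that much lower. With 3 genes, this count is not read as a trait of SOX9 targets. The cartilage genes Col2a1 and Acan had 10 and 1 UMIs in metastatic cells.

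Of 4 measured genes of the HMGA2 and let-7 axis, 1 was at least 4-fold higher, the RNA-binding protein gene Igf2bp2 at 6.80-fold, while Igf2bp3 was at 0.75 and Arid3a at 0.43. Lin28a and Lin28b, blockers of let-7 maturation, had 3 and 0 UMIs in metastatic cells. Of 7 measured mammary epithelial genes, Gata3 was 9.21-fold higher and 4 were at least 4-fold lower, with Krt8 at 0.05 and Cdh1 at 0.08 the lowest and Krt18 at 1.27. Of 8 mesenchymal genes, Cdh2 at 9.14-fold and S100a4 at 6.02-fold were past 4-fold, and Mmp2 at 0.47 and Fn1 at 0.63 were lowest.

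Across 24 sums of cells, the classes of both libraries with at least 20 cells and the metastatic cells split by state, the genes whose levels ran most like a factor were often other factors. Fosl1 and Etv4 were each other's nearest gene (Pearson r = 0.95 of log2 levels), and Fosl1 was among the 3 nearest of 4 factors. Cst6, which codes for the protease inhibitor cystatin E/M, was among the 3 nearest of 5 factors, with r = 0.95 for Fosl1 and 0.93 for Sox9. Twist1 ran most like Ndp (r = 0.94), a secreted ligand gene, and Shox2 like Cyp2c55 (r = 0.88). The nearest of Hmga2 and of Tfap2a was Fosl1 (r = 0.93 and 0.91). The factors were chosen from these same cells and libraries, so likeness among them was made likely by that choice and nothing is read from it. The sums also share 2 libraries and their depth, and every high-burden sum shares the background level, so these values only describe.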

How the data were processed

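Single cells of 1 low-burden and 1 high-burden lung were counted by the authors with Cell Ranger (2.0.2 in the submitters' processing notes) on mm10 with PYMT added, and the deposited counts are whole, unnormalized UMI counts per gene and cell (14041471 UMIs in 2668 barcodes and 52723173 in 3121). Per the methods, libraries were then aggregated, and whether the deposited counts precede that step is not given in the sources used here. The libraries share 11 cell barcodes.

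Cells with 1000 to 7000 genes and at most 10% mitochondrial UMIs were kept. A class score was the mean of log(1 + counts per 10000) over its markers. A cell passed above the cut of the class, and cells past gates of several compartments or of none were left out of the classes. The gate rule and all cuts were set after the data were seen. The 7 factors and all gene lists were chosen with earlier results of these data known, and the named related genes are the family relatives and those with the 2 highest and 2 lowest ratios of each list. Other genes named (the JUN genes, Hbegf, Plaur, Col2a1, Acan, Lin28a, Lin28b) were chosen after their values were seen.

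Levels carry exact Poisson, shares Clopper-Pearson and ratios exact conditional binomial intervals (95%), for counting error only; with 1 mouse per group no test was possible. Doublets were marked with Scrublet (3 and 8 cells) and kept, except in an alternative. A caller that marks so few cells has not worked, and the cells past several gates were left out of the classes instead. Clustering used scanpy 1.11.5, and other steps scipy 1.17.1. The scripts were tested on simulated data.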

Additional observations from a re-analysis of the deposited data

How the results depend on the processing

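No paired analysis was possible because each burden has 1 library. The count of 7 factors at least 4-fold higher in metastatic cells held in 7 of 8 alternatives. It was 0 when metastatic cells were those with a UMI of both PYMT and Ccnd1, the genes of the study's own signature for these cells. That rule took 1691 high-burden cells, among them 16.7% of the lymphocytes. Under that rule the share of cells with at least 4 factors was 4.49% and that with both Twist1 and Sox9 13.9%, and the cycling log2 ratio of Twist1 turned from -0.23 to 0.082 and that of Tfap2a from -0.16 to 0.15. Thinning to 2000 and to 10000 UMIs gave 2.60% and 58.3% for at least 4 factors, and 12.3% and 67.2% for both Twist1 and Sox9, against 7.14% and 21.9% at 3000, as deeper cells show more genes. Sums of cells thinned to 3000 UMIs put 2 factors, Fosl1 and Etv4, past 1.5-fold in cycling cells. The cycling log2 ratio of Fosl1 lay between 1.10 and 1.38 over all alternatives, and that of Sox9 between -0.57 and -0.31. With 2 Leiden clusters of 24 in place of the gate, 97.8% of the gated cells were kept. The metastatic ratios were lower, 2.72 against 3.87 for Twist1 on the log2 scale. Cells past several gates or none then count as others, and so does a further cluster of 42 high-burden cells led by the metastatic list. With the gate kept and the ungated and multiply gated cells added to the others, Twist1 was at 2.69. What lowered the ratios was not tested. A metastatic cut of 1.0 was added after seeing the data and changed none of the counts. Without a minimum of UMIs, 9.29% of genes were 4-fold higher in metastatic cells and 20.2% were 1.5-fold lower in cycling cells. With 1 library per burden, the depth limits the low-burden levels, where most classes had 0 to 4 UMIs of a factor.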

Other observations

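Within the 739 non-cycling metastatic cells, Fosl1 and Hmga2 also varied with the metastatic score, which is a mean over 8 marker genes that include Lcn2 and Spp1. In 3 groups of 247, 246 and 246 of these cells, from the lowest to the highest score, Fosl1 was at 83.3, 60.5 and 41.5 UMIs per 1000000 (CPM) and Hmga2 at 183, 165 and 98.6. Sox9 (376, 385 and 361.5), Shox2 (45.6, 44.3 and 43.3), Tfap2a (35.0, 30.7 and 33.9) and Etv4 (33.6, 36.3 and 38.5) varied less, and Twist1 was at 174, 212 and 208. Median depth was 17990, 17353.5 and 16491 UMIs.

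The 72 high-burden cells that passed both the metastatic and a myeloid gate held the 7 factors at 462 CPM in sum, between the 869 of metastatic cells and the 68.8 of macrophages. Of these cells, 25 held at least 4 factors at full depth and 22 held none. The 138 ungated high-burden cells held the factors at 384 CPM, and the 174 cells past several gates other than the metastatic one at 78.2.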
